A study of Mus musculus with 2 samples.

Results

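Glutathione, the main small thiol of the cell, and the enzymes around it were described here through 10 genes: Gpx4, Gsr, Gclc, Gclm, Hmox1, Nqo1, Txnrd1, Cat, Slc7a11 and Acsl4. The genes were chosen by symbol from the 22620 genes in the files, and all 10 were found. They were read in single nuclei of mouse brown adipose tissue, the tissue that burns fat for heat, at 4 weeks of age. There was 1 library labelled Flox and 1 labelled KO, the latter being Nfe2l1(f)-KO in the series design. Nfe2l1 encodes the transcription factor NFE2L1 (NRF1), a relative of NRF2. The number and sex of the mice behind each library, the driver of any Cre and the deleted stretch of Nfe2l1 were not given in the sources used here. With 1 library a group no difference has a replicate check and no test was run, so values stand side by side and all intervals cover counting error only.

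Glutathione is built in 2 steps, of which the first is run by glutamate-cysteine ligase, with GCLC as its catalytic and GCLM as its modifier subunit. The cysteine for it can come from cystine, taken up by the exchanger that SLC7A11 forms with a partner chain. GSR returns oxidised glutathione to its reduced form with NADPH, and TXNRD1 does the same for thioredoxin. GPX4 uses glutathione to reduce lipid peroxides in membranes and so holds back ferroptosis, an iron-dependent form of cell death, while ACSL4 loads membranes with the polyunsaturated fatty acids that such peroxidation needs. CAT breaks down hydrogen peroxide in peroxisomes, HMOX1 breaks down haem, and NQO1 reduces quinones. Many of these genes are known targets of NRF2, which binds the antioxidant response element, and Slc7a11 is also a known target of ATF4, which binds a CARE element.

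The promoters below are shown because Gclm and Txnrd1 were high together in 1 nucleus described later, and because the level of Slc7a11 differed widely between classes. The RefSeq promoter table (GRCm38.p6) held 7 of the 10 genes, all but Gsr, Gclc and Hmox1. Each line gives the 250 bases before the transcription start, 5′ to 3′ on the gene's strand, with motif matches in capitals. The windows are chr3:122245307-122245556 on the plus strand, chr10:82858956-82859205 on the plus strand (the second of 3 Txnrd1 starts in the table) and chr3:50443614-50443863 on the minus strand.
Gclm: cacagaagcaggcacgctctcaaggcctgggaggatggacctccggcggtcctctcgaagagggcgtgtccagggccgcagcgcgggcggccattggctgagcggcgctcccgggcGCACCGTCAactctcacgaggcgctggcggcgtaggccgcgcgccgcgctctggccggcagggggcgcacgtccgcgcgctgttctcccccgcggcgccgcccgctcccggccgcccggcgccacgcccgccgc
Txnrd1: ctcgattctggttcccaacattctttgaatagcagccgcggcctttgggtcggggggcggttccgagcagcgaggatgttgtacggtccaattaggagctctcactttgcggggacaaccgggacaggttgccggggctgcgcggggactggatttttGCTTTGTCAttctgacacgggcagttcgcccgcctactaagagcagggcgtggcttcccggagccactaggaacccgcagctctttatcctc
Slc7a11: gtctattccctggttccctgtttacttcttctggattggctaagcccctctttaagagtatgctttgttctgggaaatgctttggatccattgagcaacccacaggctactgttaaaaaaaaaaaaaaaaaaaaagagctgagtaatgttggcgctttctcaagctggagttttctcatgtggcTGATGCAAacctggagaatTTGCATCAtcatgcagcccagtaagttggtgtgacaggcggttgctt
Capitals in Gclm and Txnrd1 mark the antioxidant response element core TGACNNNGC, read on the opposite strand. The Gclm match lies 134 to 126 bases and the Txnrd1 match 92 to 84 bases before the start. Capitals in Slc7a11 mark the CARE core TGATGNAA, once on each strand, at 66 to 59 and 47 to 40 bases before the start. Both motifs were searched on both strands. The first was found in 3338 of 32851 promoter windows of the table (10.2%) and the second in 1134 (3.45%). No other window of the 7 genes held either motif. A match describes letters only.

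The library labelled Flox held 16145 barcodes with 46528077 UMIs (unique molecules counted once) and the library labelled KO 13030 with 43080725. Filtering left 13961 and 11543 nuclei. Their median depth was 2252 and 2639 UMIs and their median mitochondrial share 0.420% and 1.12%. The libraries shared 65 barcodes, 50 of them among kept nuclei. Nuclei fell into 14 clusters, and 8 classes were named from markers. Of these, 6 had at least 100 nuclei in each library and were compared: adipocyte-like (8842 and 8202 nuclei, Flox and KO), fibroblast/progenitor-like (2087 and 1440), endothelial-like (1409 and 913), macrophage/monocyte-like (499 and 368), pericyte/smooth muscle-like (343 and 219) and T/NK-like (220 and 187). Skeletal muscle-like (298 and 73) and Schwann-like nuclei (83 and 49) are shown for levels only. A further 180 and 92 kept nuclei were left unnamed, and orders of classes below cover the 8 named classes only. Most unnamed nuclei formed a cluster of 171 and 82 nuclei with 15 of 15 endothelial markers raised. Haemoglobin genes were among its 10 leading genes, and it is not part of the endothelial-like class. Nfe2l1 itself stood at 131 CPM (UMIs of the gene per 1000000 UMIs of the class) in adipocyte-like nuclei labelled Flox and at 312 CPM in those labelled KO, a direction opposite to the labels. Reads of this chemistry come from transcript ends and, in nuclei, from unspliced RNA. They check the labels only where they fall in the deleted stretch, so the libraries are named by their labels throughout.

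Each gene had its own distribution over the cell classes, given first as levels (CPM, Flox then KO). Levels of different genes are not compared, since UMI yield differs between genes. Among the 8 named classes Cat was highest in adipocyte-like nuclei, at 224 (95% Poisson interval 219 to 230) and 312 (306 to 319) CPM. In both libraries this lay above the intervals of the 7 other named classes, where the values ran from 33.3 to 156 CPM. The unnamed nuclei held 117 and 75 Cat UMIs of 493560 and 273402 UMIs in all. In the library labelled Flox this was no lower than in adipocyte-like nuclei. Slc7a11 was highest in skeletal muscle-like nuclei, at 533 and 587 CPM, and next in fibroblast/progenitor-like nuclei, at 75.9 and 91.1 CPM, each clear of the class below in both libraries. Adipocyte-like nuclei held only 7.51 and 6.65 CPM of it, and Schwann-like nuclei had no UMI in either library, which allows up to 21.9 and 33.3 CPM (3 UMIs, a one-sided limit below the top of the two-sided interval). At least 1 Slc7a11 UMI was found in 44.6% and 46.6% of skeletal muscle-like nuclei (median depth 1869 and 2206 UMIs) and in 1.66% and 1.58% of the deeper adipocyte-like ones (2757 and 3094 UMIs). With each nucleus thinned to 1000 UMIs and shallower ones left out, the shares were 33.8% and 23.7% (of 240 and 59 nuclei) against 0.664% and 0.532% (of 8741 and 7701).

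**Figure D1:**
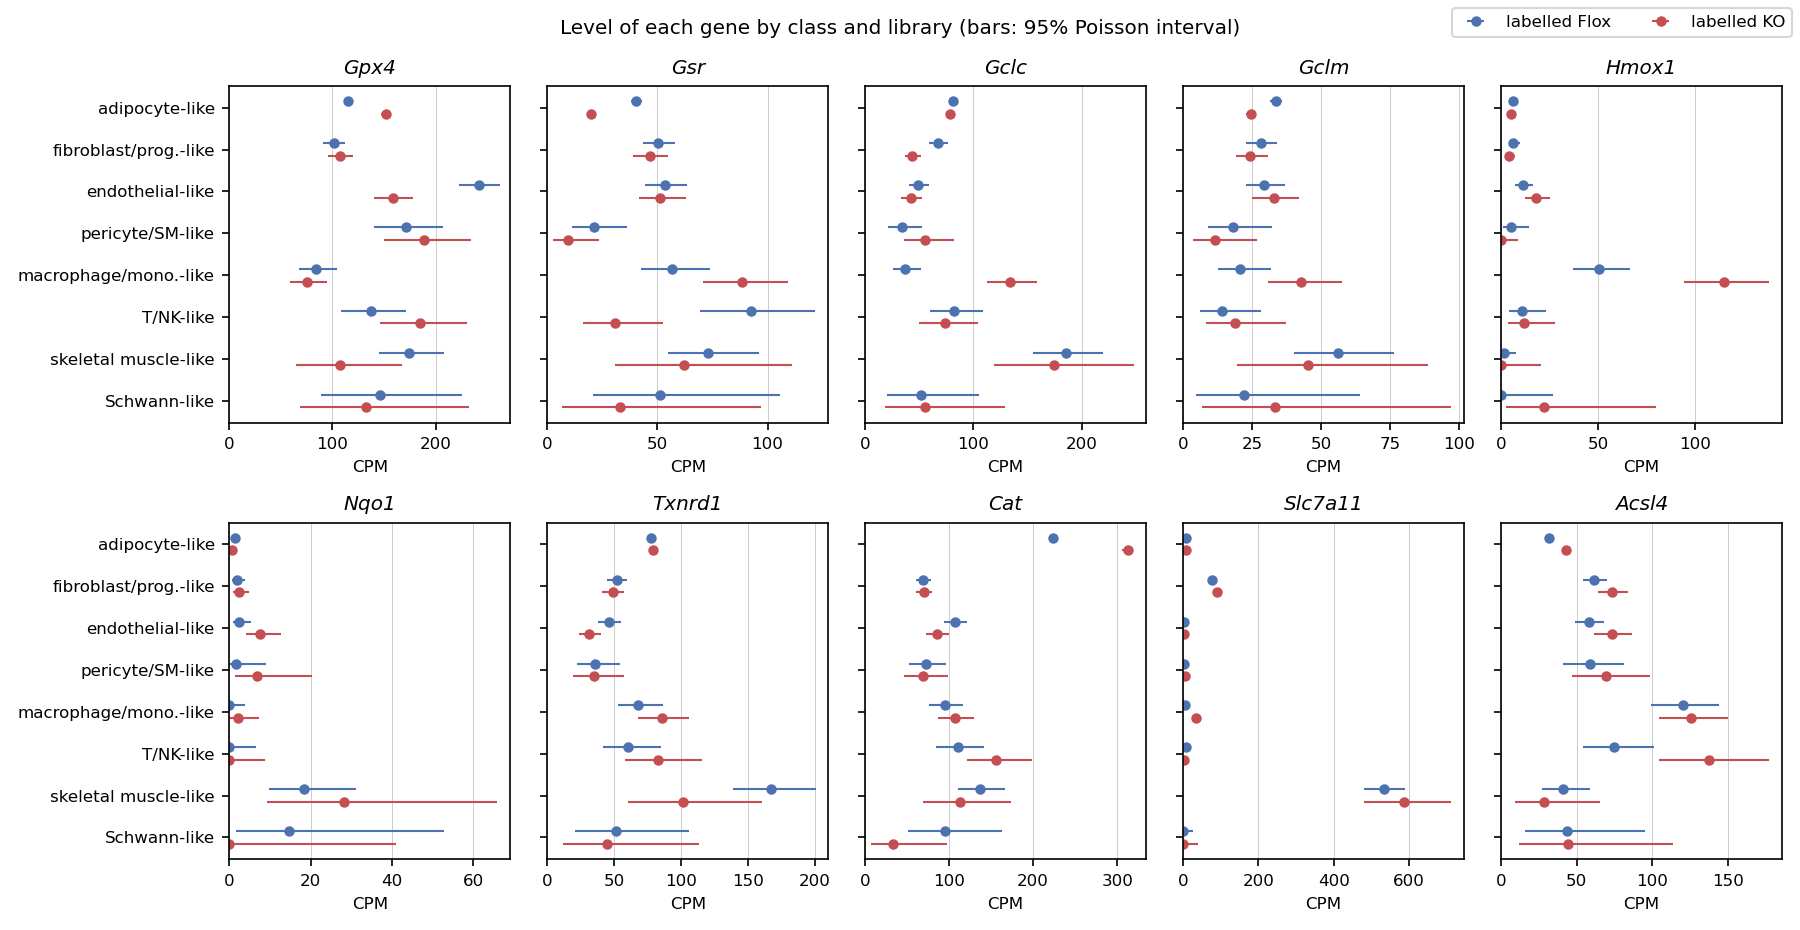
Level of each of the 10 genes (CPM, linear axis from 0, a separate scale for each gene) in the 8 named cell classes, with the library labelled Flox in blue and KO in red and bars for 95% Poisson intervals. Unnamed nuclei are not drawn. Cat stands highest in adipocyte-like nuclei (224 and 312 CPM), Hmox1 in macrophage/monocyte-like nuclei (50.4 and 115 CPM) and Slc7a11 in skeletal muscle-like nuclei (533 and 587 CPM).

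Hmox1 was highest in macrophage/monocyte-like nuclei. Its 50.4 and 115 CPM there lay above all 7 other classes, which held 0 to 22.2 CPM. Acsl4 was also highest in macrophage/monocyte-like nuclei, at 120 and 126 CPM, above 5 other classes in both libraries. The T/NK-like class (74.9 and 137 CPM) overlapped with it. Gclc (186 and 175 CPM), Txnrd1 (167 and 102 CPM) and Nqo1 (18.3 and 28.2 CPM) had their highest mean of both libraries in skeletal muscle-like nuclei, where they lay above 5, 3 and 4 other classes in both libraries. The Nqo1 levels there rested on 13 and 5 UMIs, and the Txnrd1 level labelled KO on 18. Nqo1 was scarce in every named class: T/NK-like nuclei held no UMI of it in either library, which allows up to 5.35 and 7.10 CPM. Gclc, Txnrd1, Nqo1, Acsl4, Gpx4, Gsr and Gclm had no class that stood clear of the next in both libraries. Gpx4 ranged from 75.2 to 242 CPM, Gsr from 9.23 to 92.7 and Gclm from 11.5 to 56.3 over the named classes and both libraries. Gpx4 was higher in the unnamed nuclei than in any named class, with 179 and 80 UMIs of 493560 and 273402.

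Profiles over the 6 compared classes in both libraries gave 12 points a gene that share libraries and depth. In macrophage/monocyte-like nuclei labelled KO, 82 of 132 Gclc and 14 of 42 Gclm UMIs came from 1 nucleus described later. The genes named are those with the highest r of all genes compared, so high values were picked. The 2 genes with the most similar profile of log2 levels were Mrpl52 (Pearson r 0.96) and Uqcr11 (0.95) for Gpx4, Cmas (0.92) and Cep41 (0.89) for Gsr, and Vps13a (0.97) and Hacd2 (0.96) for Cat. For Txnrd1 they were N4bp2l1 (0.96) and Tha1 (0.96), for Acsl4 Bmt2 (0.94) and Fbxo33 (0.93), for Gclc Pias2 (0.88) and Klhl10 (0.87), and for Gclm Gnal (0.84) and Bloc1s6 (0.84). Hmox1, Nqo1 and Slc7a11 had at least 50 UMIs in too few classes for this comparison.

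Between the libraries, the 10 genes went both ways in adipocyte-like nuclei. By intervals for counting error, Gsr, Nqo1 and Gclm were lower in the library labelled KO, and Cat, Gpx4 and Acsl4 were higher. Over the class as a whole, Gclc, Txnrd1, Hmox1 and Slc7a11 had intervals that included no difference. A gene was counted as different where it was 1.5-fold or more apart and had 50 or more UMIs in the 2 libraries together. All 10 genes had enough UMIs, and Gsr and Nqo1 were far enough apart, so 2 of 10 were counted as lower and 0 as higher, against 8.23% and 1.99% of the 12313 genes measured. At 2-fold, only Gsr was counted, against 2.31% lower and 0.430% higher. The median log2 ratio (KO over Flox) of the 10 genes was -0.11, and that of all genes -0.06.

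**Figure D2:**
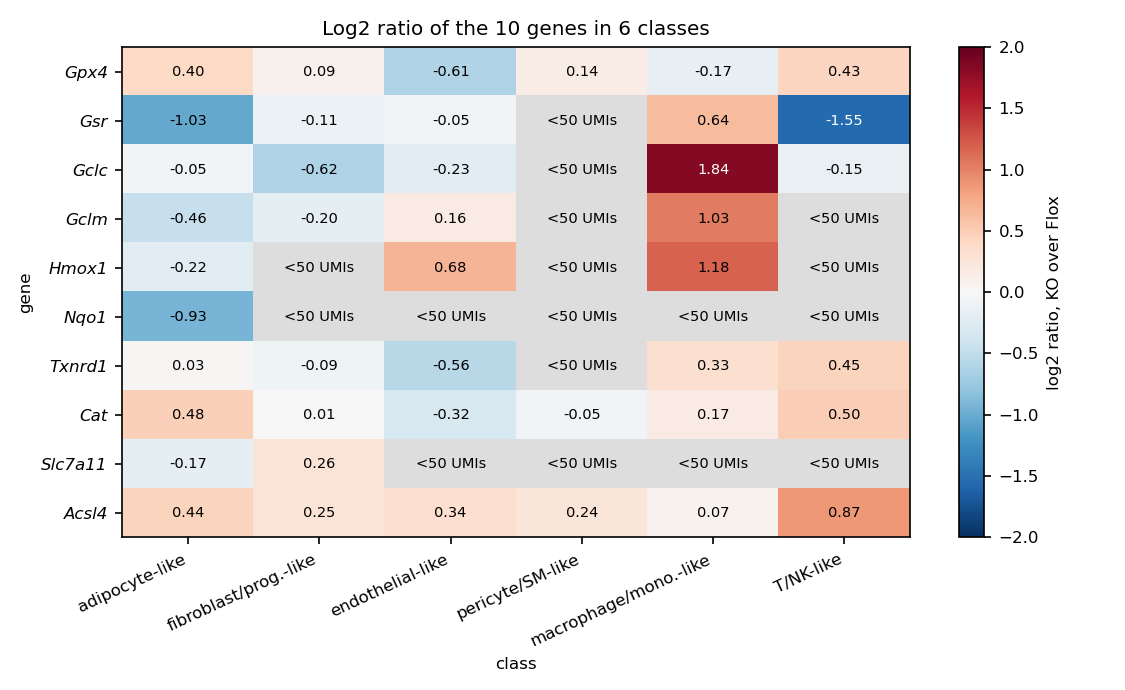
Log2 ratio of the CPM in the library labelled KO over that labelled Flox, for the 10 genes (rows) in 6 classes (columns), red for higher and blue for lower in KO, grey where a gene had fewer than 50 UMIs over both libraries. Gsr is at -1.03 in adipocyte-like and -1.55 in T/NK-like nuclei and at 0.64 in macrophage/monocyte-like nuclei.

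Gsr, which recycles glutathione, had 1132 UMIs (40.5 CPM) in adipocyte-like nuclei labelled Flox and 579 (19.9 CPM) in those labelled KO. Its log2 ratio was -1.03 (95% interval -1.17 to -0.88), and the Poisson intervals of the levels did not overlap. The UMIs were spread widely: 951 and 500 nuclei held at least 1, and none held more than 5. The share of nuclei with a Gsr UMI was 10.8% and 6.10%, and 3.76% and 1.88% after each nucleus was thinned to 1000 UMIs. The 4 nearest measured genes on chromosome 8 had log2 ratios of 0.09 (Ppp2cb), -0.35 (Ubxn8), 0.11 (Gtf2e2) and -0.28 (Smim18). Nqo1 was lower on few counts, with 37 and 20 UMIs and a log2 ratio of -0.93 (-1.81 to -0.13), which was -0.42 after thinning. Gclm was lower by less than 1.5-fold, at 33.8 and 24.6 CPM (-0.46, -0.60 to -0.32), while its partner subunit Gclc was at 81.3 and 78.5 CPM (-0.05, -0.13 to 0.04). The ligase subunits thus had intervals that did not overlap.

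Cat, the peroxisomal catalase, had 6269 UMIs (224 CPM) and 9109 UMIs (312 CPM), a log2 ratio of 0.48 (0.43 to 0.53). Gpx4 stood at 115 and 152 CPM (0.40, 0.33 to 0.47). Acsl4, which lies on the X chromosome, stood at 31.9 and 43.2 CPM (0.44, 0.31 to 0.56). All 3 were higher in the library labelled KO by more than counting error and by less than 1.5-fold. At this depth far smaller differences also lay beyond counting error, as for the adipocyte markers Fabp4 (0.14, 0.12 to 0.16) and Acaca (-0.04, -0.06 to -0.01). The share of all genes beyond it is not given here. Txnrd1 was at 77.7 and 79.1 CPM (0.03, -0.06 to 0.11), the narrowest interval around no difference beside that of Gclc. Hmox1 (5.93 and 5.11 CPM) and Slc7a11 (7.51 and 6.65 CPM) were too scarce for that precision, with log2 ratios of -0.22 (-0.54 to 0.11) and -0.17 (-0.46 to 0.11).

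Adipocyte-like nuclei comprised 4 clusters, numbered 0, 1, 3 and 6, and their mix differed between the libraries. Cluster 3, led by interferon-inducible Gbp genes, held 26.7% of the adipocyte-like nuclei labelled Flox and 10.0% of those labelled KO, and cluster 1 held 24.1% and 38.6%. Within clusters Cat kept nearly one value, with log2 ratios of 0.48, 0.44, 0.48 and 0.46. Gsr was lower in clusters 0, 1 and 3, at -0.97, -1.03 and -1.28. In cluster 6, the smallest, it had 77 and 54 UMIs and a value of -0.38, with an interval of the ratio (0.531 to 1.10) that included no difference. The same held there for Gpx4 (-0.08, against 0.45, 0.26 and 0.43 in clusters 0, 1 and 3), Acsl4 (-0.29, against 0.61, 0.33 and 0.32) and Gclm (0.13, against -0.51, -0.62 and -0.35). For each of these 3 genes the interval in cluster 6 overlapped that of at least 1 other cluster. Gclc and Hmox1 had intervals that included no difference in clusters 0, 1 and 6 but were lower in cluster 3. There Hmox1 was at -0.999 (55 and 12 UMIs, ratio 0.236 to 0.916) and Gclc at -0.26 (ratio 0.719 to 0.959). With both libraries weighted to the same cluster mix, Gsr was at -0.997 and Cat at 0.47. The level of Cat itself was highest in cluster 6, at 519 and 714 CPM, against 196 to 303 CPM in the other 3.

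**Figure D3:**
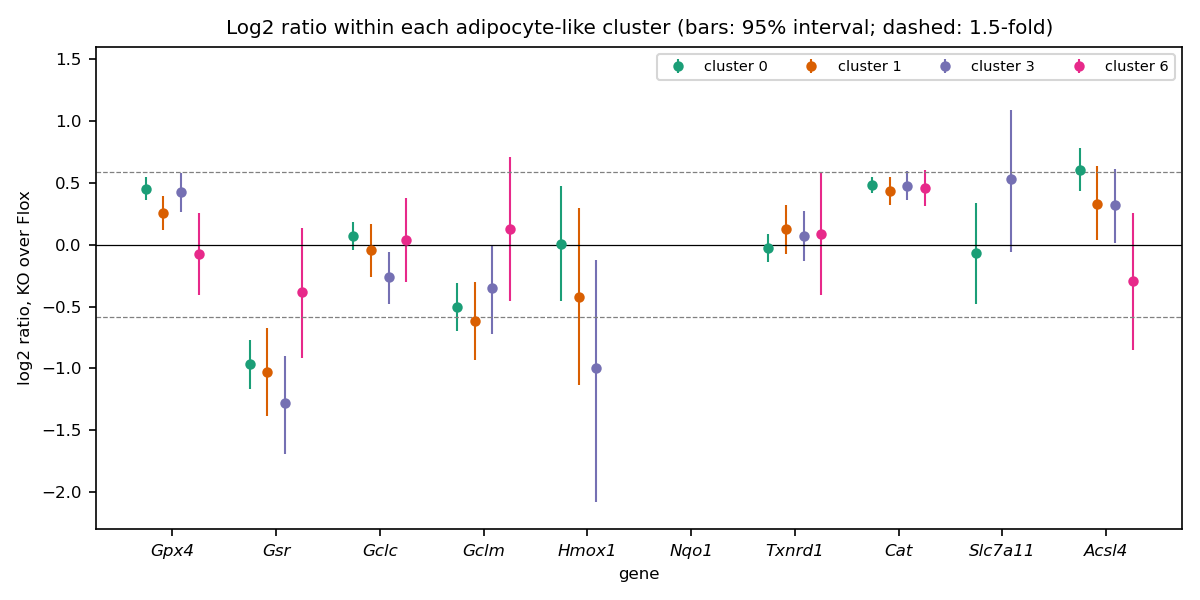
Log2 ratio (KO over Flox) of the genes within each of the 4 adipocyte-like clusters, with 95% intervals for counting error and dashed lines at 1.5-fold; a gene is drawn where it had at least 50 UMIs in the cluster. Gsr lies at -0.97, -1.03, -1.28 and -0.38, with an interval that crosses 0 in cluster 6, and Cat between 0.44 and 0.48.

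Markers of other cells moved between the adipocyte-like nuclei of the libraries as well. Summed skeletal muscle markers were at 209 and 88.4 CPM, with 11 of 12 markers lower in the library labelled KO and none at 0. Fibroblast/progenitor markers were at 2175 and 2704 CPM (10 of 15 lower), macrophage/monocyte markers at 84.0 and 93.6 CPM (12 of 14 lower) and endothelial markers at 230 and 234 CPM (13 of 15 lower), with none at 0. The adipocyte markers summed to 24241 and 24541 CPM (5 of 19 lower) but moved unevenly, with log2 ratios from -0.61 (Tshr) to 0.58 (Acsl1). The part of RNA of other cells in the values of the 10 genes was not tested.

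The wider pathway was read from 8 lists of 218 genes, of which 195 had at least 50 UMIs in adipocyte-like nuclei. Of these, 13 were counted as lower and 3 as higher in the KO library, and their median log2 ratio was -0.01. Over all genes 8.23% were lower and 1.99% higher, and none of the list counts below was tested against these shares. The list of NRF2 and its targets had most of the lower genes, 4 of 23 and none higher. They included Ephx1, the microsomal epoxide hydrolase (10.2 and 4.56 CPM, log2 ratio -1.16), and Ugt1a6a, a glucuronosyltransferase (5.04 and 3.09 CPM, -0.70). In the same list Cbr3, a carbonyl reductase, was at 0.31. Of the 22 genes that supply NADPH, 2 were lower and none higher. Me1, the cytosolic malic enzyme, had the lowest ratio of all the lists' named genes, at 122 and 44.7 CPM (-1.45, -1.54 to -1.35). G6pdx, the entry enzyme of the pentose phosphate pathway, was at 32.4 and 45.5 CPM (0.49).

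Of the 31 measured genes that use glutathione, 2 were lower and 1 higher. Hpgds, a glutathione-dependent prostaglandin D synthase known from immune cells, was at 19.7 and 8.06 CPM (-1.29). Gpx1, the abundant cytosolic glutathione peroxidase, was at 15.7 and 29.4 CPM (0.91, 0.74 to 1.08). Of 16 genes of glutathione synthesis and turnover 1 was lower, and Cbs, which feeds homocysteine towards cysteine, was at -0.49, while Slc25a39, the mitochondrial glutathione carrier, was at 0.27. None of the 24 thioredoxin, peroxiredoxin and superoxide genes was 1.5-fold apart, and the values furthest apart among its genes with at least 100 UMIs were those of Txnrd3 (-0.54) and Sesn2 (0.39).

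Of 26 iron genes 1 was higher and none lower: Pcbp1, an iron chaperone, at 19.0 and 31.3 CPM (0.72). Of 32 ferroptosis lipid and defence genes 3 were lower, among them the desaturase gene Scd2 (3.22 and 1.51 CPM, -1.08) and the phospholipase gene Pla2g6 (21.2 and 14.0 CPM, -0.60). Acsl1, which activates long-chain fatty acids, stood just under 1.5-fold at 0.58. Of 21 genes for selenoproteins, the class that GPX4 and TXNRD1 belong to, 1 was lower (Selenon, -0.76) and 1 higher (Sephs2, which makes the selenium donor, 53.9 and 81.8 CPM, 0.60).

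**Figure D4:**
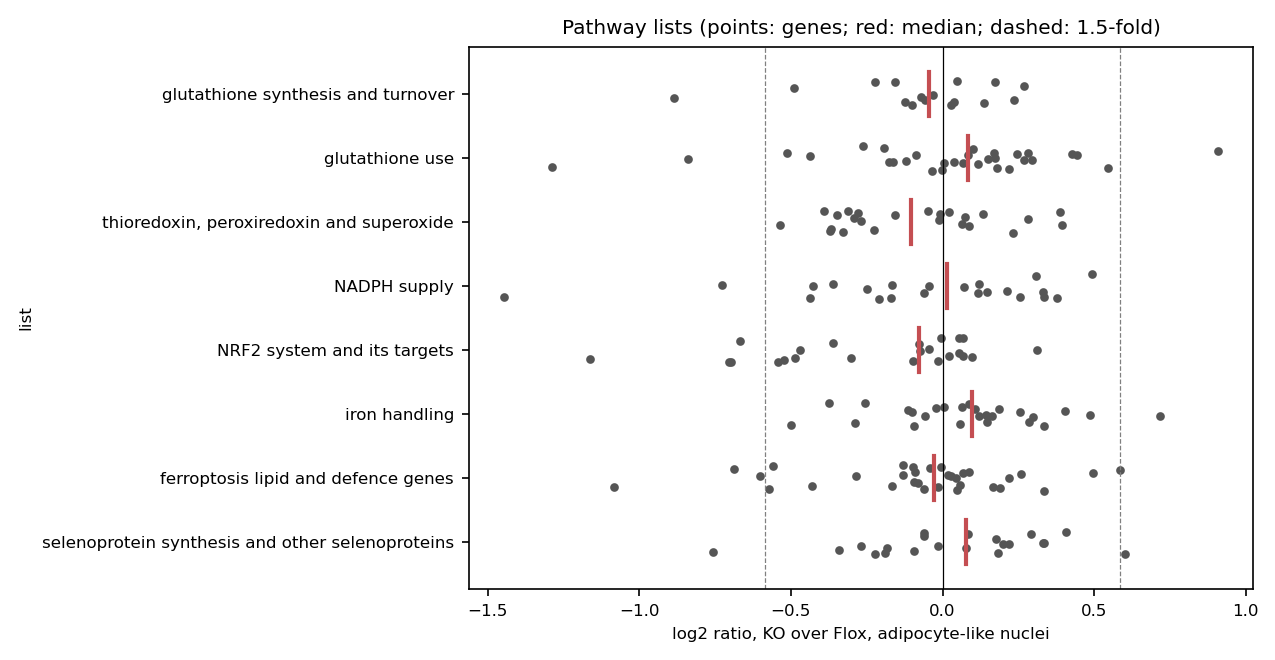
Log2 ratio (KO over Flox) in adipocyte-like nuclei of each gene with at least 50 UMIs in 8 pathway lists (points, spread at random in height), with the list median in red and dashed lines at 1.5-fold. List medians lie between -0.10 (thioredoxin, peroxiredoxin and superoxide) and 0.10 (iron handling), and Me1 of the NADPH list is lowest at -1.45.

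In macrophage/monocyte-like nuclei Gsr was higher rather than lower in the library labelled KO, a direction that changed with the processing. Of the 8 genes with at least 50 UMIs, 4 were counted as higher in the KO library (Gsr, Gclc, Gclm and Hmox1) and none as lower, against 4.57% higher and 4.55% lower of 6286 genes. At 2-fold, 3 were counted as higher (Gclc, Gclm and Hmox1), against 0.732% higher and 0.493% lower. Their median log2 ratio was 0.48, and that of all genes -0.02. A large part of this rested on 1 nucleus of the library labelled KO. Without it 2 of the 4, Gsr and Hmox1, were still counted, though it held 0 Gsr UMIs.

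That nucleus had 7770 UMIs against a class median of 2152. It held 82 of the 132 Gclc UMIs, 14 of 42 Gclm, 23 of 84 Txnrd1 and 11 of 113 Hmox1 UMIs of the class in its library, 136 UMIs of the 10 genes in all. Among the 15 genes furthest above the other nuclei were also Prdx1, a peroxiredoxin (43 UMIs), Srxn1, the sulfiredoxin that repairs such enzymes (4 UMIs), and Alcam and Flrt2, genes of adhesion proteins (79 and 26 UMIs), all named after their values were seen. The 15 genes also included Cd247, one of the T/NK markers (8 UMIs, against 12 in the other nuclei of the class), likewise named after its value was seen. This nucleus held 31 UMIs of macrophage/monocyte markers and 11 of adipocyte markers. Both are lower shares of its UMIs than in the class of its library, which held 16282 and 2801 CPM of these markers. The nucleus had a doublet score of 0.114. Without it, the log2 ratio went from 1.84 (1.32 to 2.43) to 0.46 for Gclc, from 1.03 to 0.47 for Gclm and from 0.33 to -0.12 for Txnrd1, and all 3 intervals then included no difference. The class levels of these 3 genes thus do not describe its nuclei in general.

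**Figure D5:**
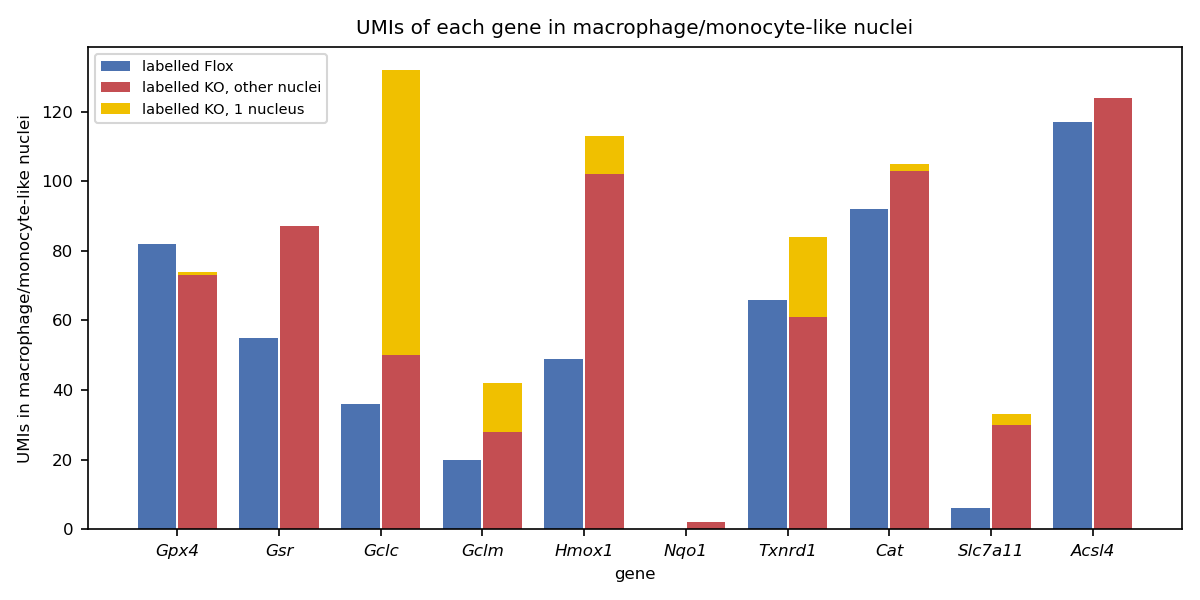
UMIs of each gene summed over macrophage/monocyte-like nuclei (499 labelled Flox in blue, 368 labelled KO in red), with the UMIs of the 1 nucleus described in the text in yellow. Of 132 Gclc UMIs in the library labelled KO, 82 lie in that nucleus, while Hmox1 is higher without it (102 UMIs against 49).

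Hmox1 was spread over more nuclei than Gclc, Gclm and Txnrd1 in the library labelled KO. The 5 nuclei with most Hmox1 still held 22 of its 49 UMIs (Flox) and 49 of its 113 (KO). It had 49 UMIs in 31 of 499 nuclei (6.21%, Clopper-Pearson interval 4.26 to 8.70%) of the library labelled Flox and 113 in 52 of 368 (14.1%, 10.7 to 18.1%) of that labelled KO. After thinning the shares were 2.16% of 371 nuclei and 8.11% of 296. In adipocyte-like nuclei the share was 1.36% and 1.34%, and 0.469% and 0.584% after thinning. Its log2 ratio was 1.18 (0.69 to 1.70), and 1.04 without the nucleus above. Gsr had 55 UMIs in 43 nuclei and 87 in 42 nuclei. The share of nuclei with a UMI (8.62% and 11.4%) thus differed less than the level. Of the 87, 17 lay in a second nucleus of 10924 UMIs, which held 6 UMIs of macrophage/monocyte markers and 127 of adipocyte markers. The ratio without the second nucleus is not given here. The log2 ratio of Gsr, 0.64 (0.14 to 1.16), was 0.11 after thinning. It turned to -0.043 with doublets kept and to -0.24 with classes drawn from marker scores. Slc7a11 stayed under the minimum of 50 UMIs with 6 and 33, of which 14 lay in 1 further nucleus. Acsl4 (120 and 126 CPM), Cat (94.7 and 107), Gpx4 (84.4 and 75.2) and Txnrd1 differed by less than counting error. Macrophage/monocyte markers summed to 16332 and 16282 CPM in the class, adipocyte markers to 3436 and 2801 CPM (16 of 19 lower) and skeletal muscle markers to 267 and 102 CPM (10 of 12 lower). The part of such RNA was not tested. Of 111 pathway genes measured, 3 were lower and 6 higher, against 4.55% lower and 4.57% higher of all genes measured. Among the 6 was Acsl1, which is also one of the adipocyte markers (199.7 and 322 CPM, 0.69). Tfrc, the transferrin receptor, was at 182 and 126 CPM (-0.53).

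In endothelial-like nuclei Gpx4 was lower and Hmox1 higher in the library labelled KO, and of 8 genes measured these 2 were counted, against 10.0% lower and 2.96% higher of 8561 genes. None was counted at 2-fold, against 2.25% lower and 0.315% higher. Gpx4 stood at 242 and 158 CPM (-0.61, -0.82 to -0.40). The value was uneven: the 5 nuclei with most Gpx4 held 93 of its 584 UMIs in the library labelled Flox, and the 3 with most UMIs of the 10 genes there had 5.57 to 7.18% mitochondrial UMIs and 460 to 800 UMIs of adipocyte markers. In the library labelled KO the top 5 held 29 of 290, and 2 of the 3 with most UMIs of the 10 genes had 7.48% and 9.42% mitochondrial UMIs. The ratio was -0.19 with a 5% limit on mitochondrial UMIs and at least 500 genes, -0.17 with doublets kept, -0.25 after thinning and -0.19 as a mean over nuclei, all under 1.5-fold. Hmox1 had 27 and 33 UMIs (11.2 and 18.0 CPM), and its interval included no difference (0.68, -0.09 to 1.48; 0.16 after thinning). Txnrd1 was lower by just under 1.5-fold (46.0 and 31.1 CPM, -0.56, -1.05 to -0.09). Nqo1 had 6 and 14 UMIs, under the minimum.

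Of 148 pathway genes in endothelial-like nuclei 29 were lower and 1 higher, against 10.0% lower and 2.96% higher of all 8561 genes. None of the list counts here was tested against these shares. List medians ran from -0.53 (NADPH supply) to 0.0011 (selenoproteins). The NADPH list had 7 of 16 lower and the thioredoxin list 5 of 19, including Prdx5, a mitochondrial and peroxisomal peroxiredoxin (60.9 and 29.0 CPM, -1.06). Mboat2, a lysophospholipid acyltransferase, was at 29.0 and 56.3 CPM (0.95). Adipocyte markers in this class summed to 14502 and 13902 CPM with 16 of 19 lower in the library labelled KO, and skeletal muscle markers to 428 and 126 CPM with 11 of 12 lower. Their part in the result was not tested.

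Fibroblast/progenitor-like nuclei had 1 of 8 measured genes lower and none higher, against 4.00% and 3.0% of 10008 genes. None was counted at 2-fold, against 0.679% and 0.560%. This was Gclc, at 67.3 and 43.7 CPM (-0.62, -0.94 to -0.31), with 252 UMIs in 203 nuclei and 127 in 116, and it was -0.44 with doublets kept and -1.04 after thinning. Gclm (28.1 and 24.4 CPM, -0.20) had an interval that included no difference. Slc7a11, for which this class is the second highest, stood at 75.9 and 91.1 CPM (0.26, 0.02 to 0.51). Aifm2, whose product FSP1 guards membranes from lipid peroxidation beside GPX4, was at 58.0 and 38.2 CPM (-0.60), and Pcbp1 at 18.7 and 27.2 CPM (0.54). Of 171 pathway genes 6 were lower and 2 higher. Adipocyte markers summed to 6105 and 5057 CPM here (13 of 19 lower) and skeletal muscle markers to 361 and 133 CPM (11 of 12 lower), and their part in the result was not tested.

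T/NK-like nuclei had 6 measured genes. Gsr was lower, with 52 UMIs (92.7 CPM) and 13 (30.8 CPM, -1.55, -2.59 to -0.69), and Acsl4 was higher (74.9 and 137 CPM, 0.87, 0.28 to 1.48), against 9.14% lower and 8.31% higher of 4824 genes. At 2-fold only Gsr was counted, against 2.22% lower and 2.34% higher. The Gsr ratio turned to 0.23 with classes drawn from marker scores, and that of Acsl4 was 0.28 with doublets kept and 0.43 after thinning. The class held markers of other cells: adipocyte markers summed to 11735 and 9274 CPM (17 of 19 lower), macrophage/monocyte markers to 3127 and 2944 CPM and skeletal muscle markers to 547 and 204 CPM, beside 2127 and 3327 CPM of the T/NK markers themselves. Their part in the result was not tested. Of 79 pathway genes 9 were lower and 5 higher, with Msrb3, a methionine sulfoxide reductase, at 185 and 78.2 CPM (-1.23) and Sesn1 at 150 and 218 CPM (0.54).

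Pericyte/smooth muscle-like nuclei had 3 genes with enough UMIs, Gpx4 (172 and 189 CPM, 0.14), Cat (71.9 and 69.2 CPM, -0.05) and Acsl4 (58.8 and 69.2 CPM, 0.24). None was 1.5-fold apart, against 6.94% lower and 5.36% higher of 4495 genes (1.40% and 0.601% at 2-fold), and their intervals all included no difference. Gsr had 13 and 4 UMIs there. Of 70 pathway genes 6 were lower and 5 higher, with Idh2, the mitochondrial isocitrate dehydrogenase that makes NADPH, at 136 and 87.7 CPM (-0.62) and Txnip, an inhibitor of thioredoxin, at 309 and 489 CPM (0.66). The class's own markers moved unevenly, summing to 11348 and 12805 CPM with 6 of 12 lower: the smooth muscle genes Myh11 (461 and 286 CPM), Acta2 (126 and 66.9) and Tagln (131 and 55.4) were lower and the pericyte gene Rgs5 (1111 and 1749) higher. Adipocyte markers summed to 8584 and 7834 CPM and skeletal muscle markers to 521 and 309 CPM. The part of these in the result was not tested.

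The positions of the genes bear on how their UMIs can be read. In the mm10 annotation (GENCODE vM21) Gsr lies at chr8:33652523-33698163 on the plus strand, Cat at chr2:103453849-103485160 on the minus strand and Gclc at chr9:77754535-77794485 on the plus strand. Txnrd1 holds Eid3 on the same strand, which had 103 and 87 UMIs of its own over all kept nuclei. Slc7a11 and Gclm overlap annotated pseudogenes and antisense or other noncoding genes, whose counts were not analysed here.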

How the data were processed

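Nuclei of brown adipose tissue were profiled with 10x 3' v3 chemistry, 8000 nuclei targeted a library, per the labels' protocols. The deposited values are UMI counts per gene and barcode, made by the authors with Cell Ranger (version 5.0.0 per the file headers) on build mm10 per the submitters' processing notes. Annotation, intron handling and cell calling were not given in the sources used here.

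Barcodes with under 200 genes or over 10% mitochondrial UMIs (99 and 129) and the highest Scrublet scores, at 0.8% per 1000 barcodes (2085 and 1358), were removed. Counts scaled to 10000, 2000 variable genes, 30 components, 15 neighbours and Leiden resolution 0.5 (scanpy 1.11.5, leidenalg 0.10.2) gave the clusters, without batch correction. A cluster took the name of the marker list with the highest mean log2 fold, given at least 3 raised markers and fewer than 2 of another list's markers among its 10 leading genes. Erythroid markers named no class, but where enough of them were raised they could bar a name under this rule. This left the cluster of 171 and 82 nuclei unnamed, though its best list was endothelial. For each class, a gene's UMIs in a library were added up and scaled to 1000000 UMIs of that class. Log2 ratios had 0.5 UMI added. Intervals at 95% are exact Poisson for levels, exact binomial for ratios and Clopper-Pearson for shares, and cover only counting error. A gene was counted from 50 UMIs and 1.5-fold on. With 1 library a group no test was run. The counting was tested on simulated data.

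All 10 genes are named. Of each pathway list, up to 2 genes each way are named in adipocyte-like nuclei and 1 each way over all lists in other classes, those furthest apart with at least 100 UMIs, and 1 as a value where none was 1.5-fold apart; 1 such gene is not reported here. The 10 genes and the lists were chosen with earlier results of these data known. Alternatives were stricter filters, doublets kept, Leiden resolution 1, classes from marker scores, thinning to 1000 UMIs, mean CPM over nuclei, other totals, TMM factors (edgeR 4.0.16), other UMI minimums and a 2-fold size. Leaving out clusters or single nuclei was chosen after seeing the data. Scripts ran in R 4.3.3 and Python 3.11.15, with matplotlib 3.10.9, pandas 2.3.3, SciPy 1.17.1 and NumPy 2.4.6.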

Additional observations from a re-analysis of the deposited data

Results flagged for a closer look

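Gsr was counted as different in opposite directions in different classes. Its log2 ratio (KO over Flox) was -1.03 in adipocyte-like and -1.55 in T/NK-like nuclei, and 0.64 in macrophage/monocyte-like nuclei. The last 2 changed sign with other processing, T/NK-like to 0.23 and macrophage/monocyte-like to -0.043 and -0.24, so the opposite directions did not hold under every alternative. Gclc was at -0.62 in fibroblast/progenitor-like nuclei and at 1.84 in macrophage/monocyte-like nuclei. With 1 library a group the difference between classes was not tested. The macrophage/monocyte-like value of Gclc was 0.46 without the nucleus that held most of its UMIs, a ratio of 1.38 whose interval (0.883 to 2.18) included no difference.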

How the results depend on the processing

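No paired analysis was possible because the labels give no shared replicate numbers and each group has 1 library, and for the same reason no replicate could be left out. In adipocyte-like nuclei 2 genes of the 10 were lower, and 1 with classes from marker scores, thinning, a 2-fold size, or without cluster 0, 1 or 3. Of pathway genes, 22 rather than 13 were lower without a UMI minimum, and 3 higher became 5 with TMM factors or without cluster 6 and 6 without cluster 0. Of all genes, 1013 lower became 630 with thinning and 3264 without a minimum, and 245 higher became 414 with TMM factors, 396 at 20 UMIs and 1496 without a minimum. In macrophage/monocyte-like nuclei 4 higher became 2 with marker-score classes, mean CPM or without 1 nucleus, and 0 with thinning. There, 3 pathway genes lower became 5 with stricter filters, 12 with doublets kept or marker-score classes, 1 with thinning, 6 with mean CPM, 11 at 20 UMIs and 27 without a minimum, and 6 higher became 0 with thinning and 20 without a minimum. Over the other 4 classes 5 differences became 3 with stricter filters, 2 with doublets kept, 1 with thinning or a 2-fold size, 8 at 20 UMIs and 12 without a minimum. Of 11 log2 ratios counted at 1.5-fold, 2 changed sign: Gsr in T/NK-like nuclei (0.23, marker-score classes) and Gsr in macrophage/monocyte-like nuclei (-0.043 with doublets kept, -0.24 with marker-score classes). Of the 32 smaller ratios, 23 changed sign under at least 1 alternative, among them Cat in endothelial-like nuclei (from -0.32 to 0.12 with doublets kept). Nqo1 had no UMI in adipocyte-like cluster 6 and so no ratio there. Thinning and higher minimums leave fewer genes measured; the cause of the other changes was not tested.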
